A study of Mus musculus with 2 samples.

Results

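The cells described here are 230 cells of the *Lin28a* knockout library in which at least 1 *Lin28a* UMI was counted. A UMI (unique molecular identifier) marks one captured RNA molecule. The cells were selected on measured values: at least 2000 UMIs, at most 20% of them mitochondrial, at least 5% from ribosomal protein (RP) genes, under 0.3% from the fibroblast collagens *Col1a1*, *Col1a2* and *Col3a1*, and at least 1 *Lin28a* UMI. They were 230 of the 1052 knockout-library cells within the same depth and composition limits, and the other 822 cells, with no *Lin28a* UMI, served as the reference. Both libraries together held 2650 cells within these limits. The *Lin28a* level, the depth and the 3 shares therefore chose the members and are given as a description.

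The study made 1 inDrop library from each of 2 mouse embryonic stem (ES) cell clones, wild-type and *Lin28a* knockout, to compare their expression cell by cell. The wild-type cells were clone a2.1, a clone that went through transfection and stayed wild-type, and the knockout cells were clone a3.5, made with CRISPR/Cas9 and a guide to the second exon of *Lin28a*. Both were untreated ES cells derived from the inner cell mass and grown on gelatin with mouse embryonic fibroblast (MEF) feeders in LIF/2i medium, so feeder cells could enter both libraries. Each genotype was 1 clone and 1 library, so a difference between libraries cannot be told apart from one between clones or cultures, and no test across samples was possible. The comparisons between cells with and without a *Lin28a* UMI were made within a library, where the cells are not replicates.

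LIN28A is an RNA-binding protein of ES cells and early embryos. It binds the precursors of the let-7 microRNAs and blocks their maturation, and it is also found in the nucleolus, where ribosomes are assembled. Mature let-7 represses messenger RNAs that pair with its seed, among them those of *Lin28a* itself, *Trim71* and *Igf2bp1*, so LIN28A and let-7 hold each other down.

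The sequences below show how the let-7 seed pairs with messenger RNAs. The 3 mature let-7 microRNAs, from RefSeq (GRCm38.p6), share 1 seed, bases 2 to 8, shown in capitals:
mmu-let-7a-5p: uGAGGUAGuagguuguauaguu
mmu-let-7d-5p: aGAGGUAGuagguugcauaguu
mmu-let-7g-5p: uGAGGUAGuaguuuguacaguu
The first seed match in the 3′ UTR of *Lin28a* and of 2 members of the let-7 target list, *Trim71* and *Igf2bp1*, is shown on the transcript strand, with the match to the letters CTACCTC in capitals (GENCODE M21, GRCm38, all on the minus strand). The *Lin28a* site lies at chr4:134005182-134005204 in a UTR of 2775 bases with 2 matches, the *Trim71* site at chr9:114512465-114512487 in a UTR of 5512 bases with 4, and the *Igf2bp1* site at chr11:95961771-95961793 in a UTR of 6337 bases with 4:
Lin28a: ctgttgaaCTACCTCatttttgc
Trim71: cctaagtcCTACCTCagcttaaa
Igf2bp1: gaagtaaaCTACCTCaaggtgtg
A match is a description of the letters and not a measured site, and these libraries do not measure mature let-7.

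The files held 12079546 UMIs in 4329 wild-type barcodes and 10027710 UMIs in 6060 knockout barcodes. Barcodes carry running numbers in each file, so barcodes shared by the libraries could not be counted. Levels are given in CPM, UMIs of a gene per 1000000 UMIs. *Lin28a* was counted at 36.9 CPM in the 1052 knockout-library cells (exact Poisson interval 32.9 to 41.1) and at 111 CPM in the 1598 wild-type cells (105 to 117), a ratio of 0.332 (0.293 to 0.376). All intervals given here are 95% intervals and cover counting error only. *Lin28a* lies on chromosome 4, 134003330 to 134018841, minus strand (GRCm38). The guide's target, exon 2, is the 197 bases from 134018053 to 134018249, while inDrop reads the 3′ ends of transcripts, which lie in exon 4, 134003330 to 134006321. The UMIs are thus counted outside the edited part, and they show neither that the edit is there nor that a cell escaped it.

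The share of knockout-library cells with a *Lin28a* UMI was 21.9% (exact binomial interval 19.4 to 24.5), against 48.6% of wild-type cells (46.1 to 51.0). In knockout-library cells of 2000 to 5000 UMIs it was 12.4%, in cells of 5000 to 10000 UMIs 17.2% and in cells of 10000 or more UMIs 36.7%. The share thus followed depth, and when every cell was brought to 2000 UMIs it came to 6.51% in the knockout and 19.3% among wild-type cells. The level did not climb from bin to bin in this way. In the same 3 depth bins it was 37.6 (25.9 to 52.8), 29.2 (23.9 to 35.3) and 43.5 (37.3 to 50.3) CPM in knockout-library cells. There the intervals of the middle and deepest bins did not overlap. In wild-type cells the level was 113, 109 and 115 CPM. In every bin the knockout level lay below the wild-type level, with ratios of 0.332 (0.222 to 0.483), 0.267 (0.216 to 0.328) and 0.379 (0.311 to 0.461).

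**Figure D1:**
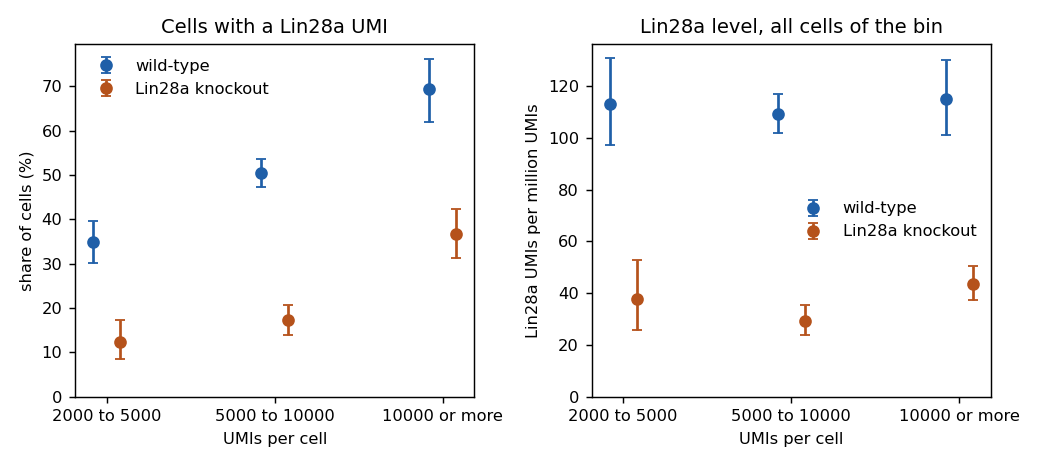
Share of cells with a *Lin28a* UMI (left, %, exact binomial 95% intervals) and *Lin28a* CPM over all cells (right, exact Poisson 95% intervals) in 3 depth bins of each library. The share climbs with depth in both libraries, to 36.7% in the knockout and 69.4% among wild-type cells, while the knockout level stays between 29.2 and 43.5 CPM.

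Barcodes rich in fibroblast collagens and barcodes under 500 UMIs were read as a background. Whether their *Lin28a* UMIs came from free RNA or from ES cells was not tested. In the knockout library 2 of 13 barcodes with at least 2000 UMIs and a collagen share of 0.3% or more had a *Lin28a* UMI, a share of 15.4% (1.92 to 45.4) at a median depth of 7134 UMIs. The knockout-library cells of 5000 to 10000 UMIs, with a median depth of 7197 UMIs, stood at 17.2% (14.0 to 20.8), within that interval. In the wild-type library 3 of 42 such barcodes had one, 7.14% (1.5 to 19.5) at a median of 9291.5 UMIs, below the 50.4% (47.3 to 53.5) of cells of 5000 to 10000 UMIs. The level in the collagen-rich barcodes was 19.3 CPM (2.34 to 69.8) in the knockout library, from 2 *Lin28a* UMIs. In the wild-type library it was 7.03 CPM (1.45 to 20.5), from 3. With a collagen share of 1% or more, 0 of 8 knockout barcodes had a *Lin28a* UMI, and the interval of that share still reached 36.9%. The 4423 knockout barcodes under 500 UMIs, below the depth the study required of a cell, carried *Lin28a* at 93.6 CPM (71.9 to 120). The 2472 such wild-type barcodes carried it at 248 CPM (204 to 299). The collagen-rich background of the knockout library was not resolved with 2 UMIs. A single *Lin28a* UMI in a knockout-library cell could thus not be told apart from background. Membership is therefore not read as expression of the gene.

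The members held 318 *Lin28a* UMIs. Exactly 1 was counted in 168 of the 230 cells (73.0%), 2 in 46 cells, 3 in 11, 4 in 2, 5 in 1 and 6 in 2. If the same UMIs had been spread over all 1052 cells in proportion to depth alone, 266 cells would have held at least 1 and 6.14 cells 3 or more, where 230 and 16 were counted. The *Lin28a* UMIs were thus gathered in fewer cells than an even spread gives. The wild-type library leaned the same way, with 776 cells with at least 1 where an even spread gives 822, and 108 cells with 3 or more where it gives 81.9. Of the 16 knockout-library cells with 3 or more, 13 had 10000 or more UMIs and none had under 5000, and their median depth was 14367 UMIs.

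**Figure D2:**
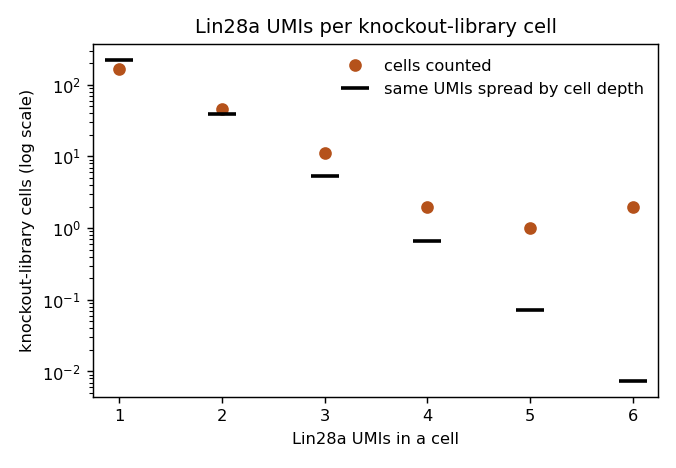
Number of knockout-library cells (log scale) by their number of *Lin28a* UMIs, with the number that the same UMIs would give if spread by cell depth alone (bars). Cells with 1 UMI were fewer than the spread gives (168 against 221), and cells with 3 were more (11 against 5.40).

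Few cells lay near the limits other than depth. The member with the fewest UMIs had 2137, and 14 cells with a *Lin28a* UMI and 500 to 2000 UMIs met all other limits, the deepest of them with 1986. The RP limit alone left out 2 cells with a *Lin28a* UMI, the higher with an RP share of 3.71%, against 5.61% in the lowest member. The collagen limit alone left out 1 such cell and the mitochondrial limit none, and the highest shares among members were 0.0465% collagen and 5.41% mitochondrial.

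*Ddx3y* and *Eif2s3y*, 2 broadly expressed Y-linked genes, set the libraries apart, with few UMIs in the knockout library. Their summed level was 4.70 CPM in the members (2.34 to 8.41) and 2.39 in the reference cells (1.34 to 3.94), against 79.2 (72.1 to 86.7) in wild-type cells with a *Lin28a* UMI. They were found in 11 of the 230 members, always as 1 UMI, whereas 107 of the 776 wild-type cells with a *Lin28a* UMI held 2 or more. With *Uty* and *Kdm5d* added, the 4 Y-linked genes stood at 22.6 CPM in members and 14.3 in reference cells, a ratio of 1.58 (1.08 to 2.29), and at 101 in wild-type cells with a *Lin28a* UMI. That ratio was not clear of 1 when the reference was also weighted by RP share, at 1.43 (0.976 to 2.08). Without *Uty*, the best counted of the 4, its interval also held 1 (0.828 to 2.66). The gap to the wild-type cells lay in *Ddx3y* and *Eif2s3y*: *Uty* stood at 13.2 CPM in members (8.99 to 18.8) and 18.8 in wild-type cells with a *Lin28a* UMI (15.5 to 22.7), and *Kdm5d* at 4.70 and 3.42. Against the reference cells the pair went opposite ways on few UMIs: *Eif2s3y* had 10 UMIs in members and 5 in reference cells, a ratio of 4.53 (1.56 to 24.9), and *Ddx3y* had 1 and 10, a ratio of 0.435 (0.00762 to 2.56). The Scrublet doublet caller marked 1 member (0.435%) and 15 reference cells (1.82%).

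Members differed from reference cells in depth and in composition. Their median depth was 9950 UMIs against 6986, so each reference value below was weighted to the members' UMIs in the 3 depth bins. The median mitochondrial share was 1.51% in members and 0.952% in reference cells of 2000 to 5000 UMIs, 1.81% and 1.30% in those of 5000 to 10000, and 1.98% and 1.77% in those of 10000 or more. The median RP share ran the other way, at 10.7% and 12.0%, 9.78% and 11.4%, and 9.07% and 9.48% in the same bins. Members thus stood on the mitochondrial-high, RP-low side in every bin. Genes detected at 2000 UMIs per cell were 1305 and 1254, 1325 and 1284, and 1345 and 1330. Cells with more *Lin28a* UMIs lay farther that way: with 0, 1, 2 and 3 or more, the median mitochondrial share was 1.35, 1.78, 1.96 and 2.32%, and the median RP share 11.0, 9.70, 9.04 and 8.40%, while the median depth was 6986, 8992, 11635 and 14367 UMIs.

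The same association in the same cells, all of it in values that the rule used, can be described by share. When the knockout-library cells of each depth bin were ranked by mitochondrial share and split into 3 equal groups, *Lin28a* stood at 22.5 CPM in the lowest group (17.3 to 28.8), 41.1 in the middle (34.1 to 49.2) and 46.4 in the highest (38.9 to 54.9). Ranked by RP share, it stood at 52.2 (44.3 to 61.2), 35.0 (28.6 to 42.5) and 22.5 (17.2 to 28.8) from the lowest to the highest group. The wild-type cells gave the same orders, with 89.0, 116 and 127 by mitochondrial share and 132, 121 and 79.8 by RP share. These values restate the association and are no separate support for it. These groups were added after the values of the members had been seen.

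**Figure D3:**
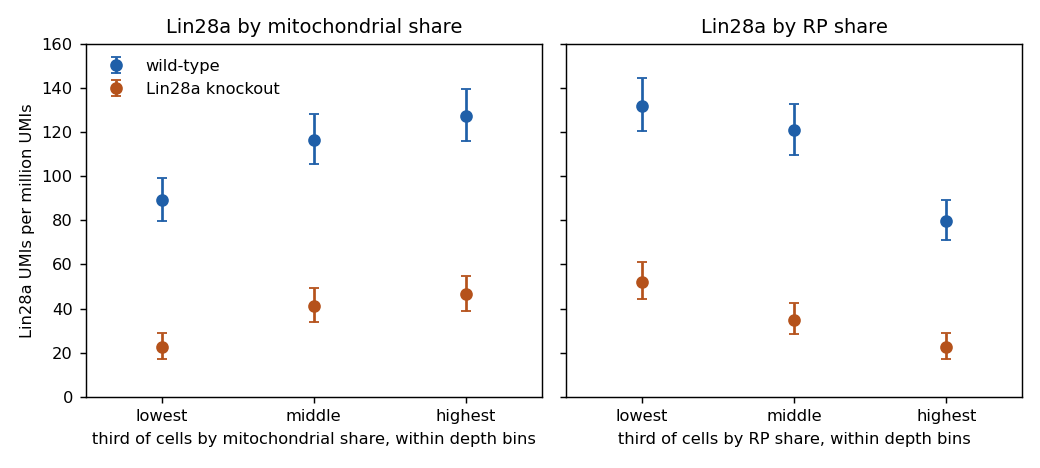
*Lin28a* CPM (exact Poisson 95% intervals) in cells split into 3 equal groups within each depth bin by mitochondrial share (left) or by RP share (right), in both libraries. The level goes from 22.5 to 46.4 across mitochondrial share and from 52.2 to 22.5 across RP share in the knockout library, and the wild-type library has the same order at a higher level.

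Of 6308 genes with at least 200 UMIs over members and reference, 31 (0.491%) were at least 1.5-fold higher in the members and above the reference in all 3 depth bins, and 34 (0.539%) were at least 1.5-fold lower and below it in all 3. The median ratio of all 6308 genes was 1.02, with 54.7% of them above 1, and 10% of the genes lay below 0.837 and 10% above 1.25. These counts moved with the settings, to 103 and 57 of 6308 genes without depth bins and to 3 and 2 of the 3114 genes with at least 500 UMIs. The genes past the fold were sparsely counted, with medians of 277 and 241 UMIs against 495 for all genes compared. In wild-type cells with and without a *Lin28a* UMI, 19 of 7161 genes were higher (0.265%) and 9 lower (0.126%) by the same rule. Of the 31 genes higher in the members, 24 had a wild-type ratio above 1, where 54.8% of all genes compared in both did. Of the 34 lower genes, 27 also had at least 200 UMIs in the wild-type cells, and 21 of these had a wild-type ratio below 1. The single gene past the fold upward in both libraries was *Yipf4*, a Golgi membrane protein, at 1.63 (1.22 to 2.19) in the knockout and 1.57 among wild-type cells, and no gene was past it downward in both. The longest transcript of the genes higher in the members had a median of 3797 bases, that of the lower genes 1940.5 bases and that of all genes compared 2956 bases.

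The RP share moved with much of this. When the reference was weighted over depth and over 3 groups of RP share within each depth bin, 3 of the 31 higher genes still passed the rule, and 14 of the 34 lower genes, beside 6 others that passed it only then. The 3 were *Myc*, *Cebpg* and *Med6*. *Cebpg*, a bZIP transcription factor, had a ratio of 1.58 (1.16 to 2.15) by depth and 1.51 (1.10 to 2.07) with RP share weighted, and *Med6*, a Mediator subunit, 1.61 (1.20 to 2.17) and 1.55 (1.15 to 2.08). The 6 others included *Cdkn1a*. This weighting was added after the data had been seen.

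*Myc*, the growth-promoting transcription factor and a let-7 target, had the highest ratio. It was counted at 61.4 CPM in members and 14.4 in reference cells of 2000 to 5000 UMIs, at 34.4 and 19.2 in those of 5000 to 10000, and at 48.8 and 23.5 in those of 10000 or more. Members were thus higher in each bin, at 45.3 against 21.8 over all, a ratio of 2.07 (1.57 to 2.75) from 106 UMIs in members. With RP share also weighted the ratio was 1.97 (1.48 to 2.61), and in the wild-type library it was 1.31.

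**Figure D4:**
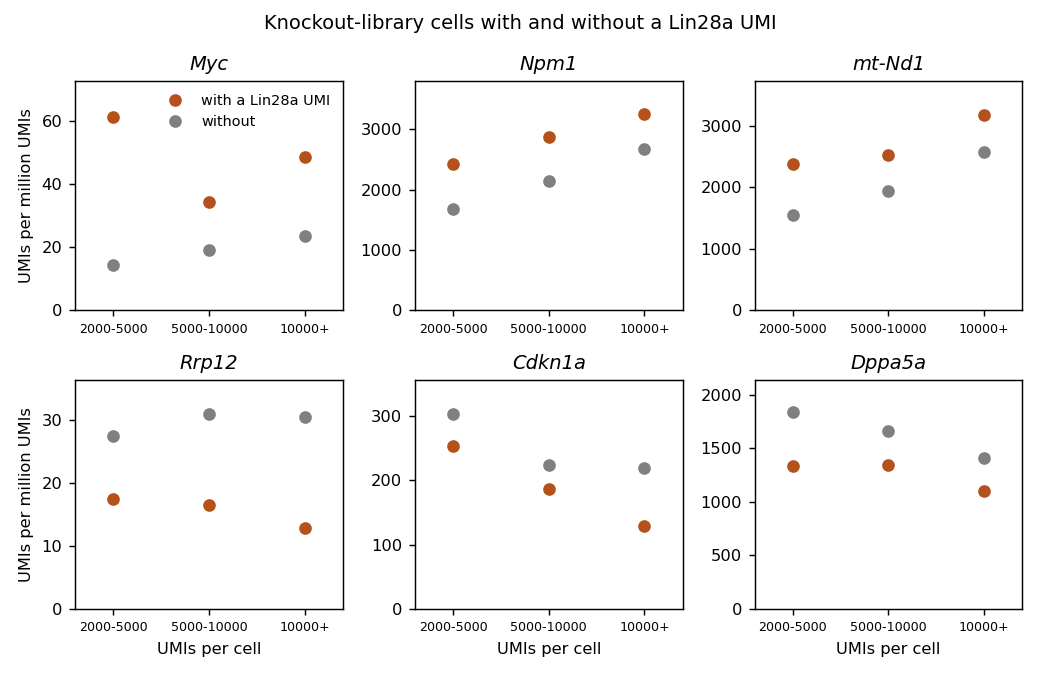
CPM of 6 genes in knockout-library cells with (orange) and without (grey) a *Lin28a* UMI, in 3 depth bins. *Myc*, *Npm1* and *mt-Nd1* are higher and *Rrp12*, *Cdkn1a* and *Dppa5a* lower in the members in each bin, and *Myc* over all bins stands at 45.3 against 21.8.

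The other genes with the highest ratios had varied roles. *Chek1*, the checkpoint kinase of DNA replication, was counted at 52.6 and 22.2 CPM in members and reference of the shallowest bin, 44.9 and 28.7 in the middle and 55.2 and 34.0 in the deepest. Its ratio was 1.63 (1.28 to 2.09) here and 1.13 among wild-type cells. *Zfp985*, a zinc finger gene, had a ratio of 1.73 (1.30 to 2.32), and reads of its near-identical relatives may be shared with it. *Cnot6l*, a deadenylase of the CCR4-NOT complex, had a ratio of 1.72 (1.28 to 2.32). *Rhot1*, which tethers mitochondria to their transport motors, had a ratio of 1.69 (1.32 to 2.17). *Hnrnph2*, an RNA-binding splicing factor, had 1.66 (1.28 to 2.15), *Alkbh8*, a tRNA methyltransferase, 1.63 (1.20 to 2.23), *Mphosph6*, an exosome cofactor, 1.62 (1.31 to 2.01), and *N4bp2* 1.62 (1.24 to 2.12). With RP share also weighted, *Chek1* stood at 1.41 (1.10 to 1.81) and *Mphosph6* at 1.49 (1.20 to 1.84). Apart from *Myc*, these ratios rest on 79 to 157 UMIs in the members.

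*Rrp12*, a ribosome export and assembly factor, had the lowest ratio. It was counted at 17.5 CPM in members and 27.5 in reference cells of the shallowest bin, 16.4 and 31.0 in the middle, and 12.8 and 30.5 in the deepest. Over all bins the ratio was 0.466 (0.307 to 0.677), from 33 UMIs in the members, and it was 0.492 (0.325 to 0.726) with RP share weighted and 0.892 in the wild-type library. *Nr4a1*, an immediate early nuclear receptor, had a ratio of 0.569 (0.417 to 0.760), and *Cebpb*, a bZIP transcription factor, 0.624 (0.444 to 0.858). *Sap30l*, a subunit of histone deacetylase complexes, had a ratio of 0.521 (0.353 to 0.742), with a wild-type ratio of 1.15. *Hgs*, of the endosomal ESCRT machinery, had 0.607 (0.410 to 0.870), and *Chmp7*, also an ESCRT component, 0.584 (0.401 to 0.827). *Tor2a*, *Rab40c* and *Mrpl54* had ratios between 0.569 and 0.619. The low and high ends were thus both held by sparsely counted genes, and their order within each end is not resolved by the intervals.

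The p53 targets had a summed ratio of 0.898 (0.862 to 0.936), at 1393 CPM in members and 1551 in reference cells. Of 17 genes compared, 6 had a ratio above 1, the median was 0.926 and 1 passed the fold, *Plk2* at 0.630, with 0.771 in wild-type. *Cdkn1a*, the cell cycle inhibitor p21, was counted at 254 and 304 CPM in members and reference of the shallowest bin, 187 and 224 in the middle and 128 and 219 in the deepest. It was lower in members in each bin, with a ratio of 0.673 (0.596 to 0.759), just short of the fold rule, and of 0.648 (0.572 to 0.733) with RP share weighted. *Sesn2*, a stress-response sestrin, had 0.795 (0.694 to 0.908), and *Bax*, the pro-apoptotic channel protein, 0.926 (0.832 to 1.03). *Trp53*, which encodes p53, had a ratio of 1.03 (0.970 to 1.10). In wild-type cells the list stood at 0.931 (0.899 to 0.963) and *Cdkn1a* at 0.828.

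The DNA replication genes of S phase had a summed ratio of 1.09 (1.07 to 1.11), with 29 of 38 genes above 1, a median of 1.11 and none past the fold. *Pcna*, the sliding clamp of DNA polymerase, was counted at 414 CPM in members and 361 in reference cells, a ratio of 1.15 (1.06 to 1.24), and *Mcm2*, of the replicative helicase, had 1.11 (1.03 to 1.20). *Mcm5*, of the same helicase, ran the other way at 0.814 (0.737 to 0.898). The G2/M genes had a summed ratio of 1.08 (1.06 to 1.10), with 36 of 46 above 1, a median of 1.08 and none past the fold. *Ran*, the GTPase of nuclear transport, had 1.14 (1.09 to 1.19) and *Top2a*, topoisomerase II, 1.05 (0.980 to 1.13). *Ube2c*, a ubiquitin-conjugating enzyme that works with the anaphase-promoting complex, had 1.0001 (0.934 to 1.07), and *Mki67*, the proliferation marker, 1.08 (0.914 to 1.27). With RP share weighted the lists stood at 1.07 (1.05 to 1.10) and 1.05 (1.03 to 1.07), while *Pcna* came to 1.02 (0.940 to 1.10), *Mcm5* to 0.914 (0.826 to 1.01) and *Ran* to 1.09 (1.04 to 1.14). Both lists also stood above 1 in wild-type cells, at 1.06 each.

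The RP genes, part of the selection rule, were at 98208 CPM in members and 110064 in reference cells, a summed ratio of 0.892 (0.888 to 0.897), with 6 of 84 genes above 1, a median of 0.889 and none past the fold. *Rpl11* stood at 0.850 (0.808 to 0.894) and *Rps6* at 0.906 (0.865 to 0.949). The nucleolar and ribosome assembly genes had a summed ratio of 1.09 (1.07 to 1.10), with 25 of 40 genes above 1, a median of 1.04 and 1 past the fold, *Rrp12*, which was lower. *Npm1*, the nucleolar chaperone nucleophosmin, was counted at 2428 and 1674 CPM in members and reference of the shallowest bin, 2879 and 2145 in the middle and 3249 and 2679 in the deepest, a ratio of 1.25 (1.22 to 1.29). Without *Npm1* the list stood at 1.03 (1.01 to 1.05), near the 1.02 median of all genes compared. *Ncl*, nucleolin, had 1.06 (1.02 to 1.10), *Fbl*, the rRNA methyltransferase fibrillarin, 0.888 (0.762 to 1.03), and *Tcof1*, of rRNA transcription, 0.886 (0.821 to 0.956). With RP share weighted the assembly list stood at 1.05 (1.04 to 1.07) and *Npm1* at 1.11 (1.08 to 1.14). The wild-type ratios were 0.897 for the RP list, 1.08 for the assembly list and 1.14 for *Npm1*.

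The mitochondrially encoded genes, also part of the rule, had a summed ratio of 1.17 (1.16 to 1.18), with 13 of 14 genes above 1, a median of 1.14 and none past the fold. *mt-Nd1*, of complex I, stood at 1.26 (1.22 to 1.30), *mt-Atp6*, of ATP synthase, at 1.22 (1.18 to 1.25) and *mt-Co1*, of cytochrome oxidase, at 1.16 (1.13 to 1.20). The nuclear-encoded subunits of oxidative phosphorylation ran the other way, with a summed ratio of 0.936 (0.922 to 0.951), 11 of 43 genes above 1 and a median of 0.910. *Atp5b* stood at 0.862 (0.808 to 0.920), *Cox8a* at 0.894 (0.839 to 0.952) and *Atp5a1* at 1.08 (1.02 to 1.14), and *Sdhb*, of succinate dehydrogenase, passed the fold at 0.653. Nuclear and mitochondrial parts of the same complexes thus lay on opposite sides of 1 in the members, as they did in wild-type cells, at 0.940 and 1.14. With RP share weighted both came to about 1, at 0.987 (0.971 to 1.002) for the nuclear and 1.0009 (0.989 to 1.01) for the mitochondrial genes. The glycolytic enzymes stood at 0.972 (0.957 to 0.987), with 7 of 16 above 1 and a median of 0.976. *Gapdh* was at 0.941 (0.921 to 0.960), *Pkm* at 0.893 (0.843 to 0.947) and the glucose transporter gene *Slc2a3* at 1.10 (1.04 to 1.17). With RP share weighted the list stood at 1.01 (0.993 to 1.02), *Gapdh* at 0.989 (0.969 to 1.01) and *Pkm* at 0.983 (0.926 to 1.04), and without *Gapdh* the list was at 1.01 (0.989 to 1.04) by depth alone.

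The let-7 targets and oncofetal RNA binders had a summed ratio of 1.04 (1.01 to 1.07), at 3354 CPM in members and 3222 in reference cells. Of 17 genes compared, 13 were above 1, the median was 1.12 and 1, *Myc*, passed the fold. *Trim71*, a ubiquitin ligase and RNA binder whose site is shown above, had ratios of 1.17, 1.16 and 1.20 in the 3 bins and of 1.17 in wild-type. *Igf2bp1*, an oncofetal mRNA binder, had 1.04 (0.980 to 1.11), *Hmga1*, a chromatin protein, 0.969 (0.918 to 1.02), and *Cdc34*, a ubiquitin-conjugating enzyme, 0.810 (0.741 to 0.884). *Lin28b*, the paralogue of *Lin28a*, was counted with 6 UMIs in the members, a ratio of 0.749 with an interval of 0.239 to 1.92. In wild-type cells the list stood at 1.04 (1.02 to 1.06). Of 5240 compared genes with a 3′ UTR, 451 (8.61%) held the letters CTACCTC, with a median ratio of 1.06 against 1.03 for those without, while their UTRs had medians of 2258 and 841 bases. Of the 17 list genes compared, 9 (52.9%) held the letters. The microRNA processing genes had a summed ratio of 1.08 (1.02 to 1.14), with 7 of 10 above 1, a median of 1.06 and none past the fold. Without *Ago2*, the best counted gene, their summed ratio was 1.04 (0.980 to 1.11). *Ago2*, the slicing Argonaute, stood at 1.17 (1.06 to 1.29), *Drosha*, the nuclear microRNA nuclease, at 0.998 (0.864 to 1.15) and *Tnrc6a*, a scaffold of silencing complexes, at 1.01 (0.852 to 1.20). Neither list cleared 1 in its interval with RP share weighted, at 1.02 (0.996 to 1.05) and 1.02 (0.962 to 1.07).

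**Figure D5:**
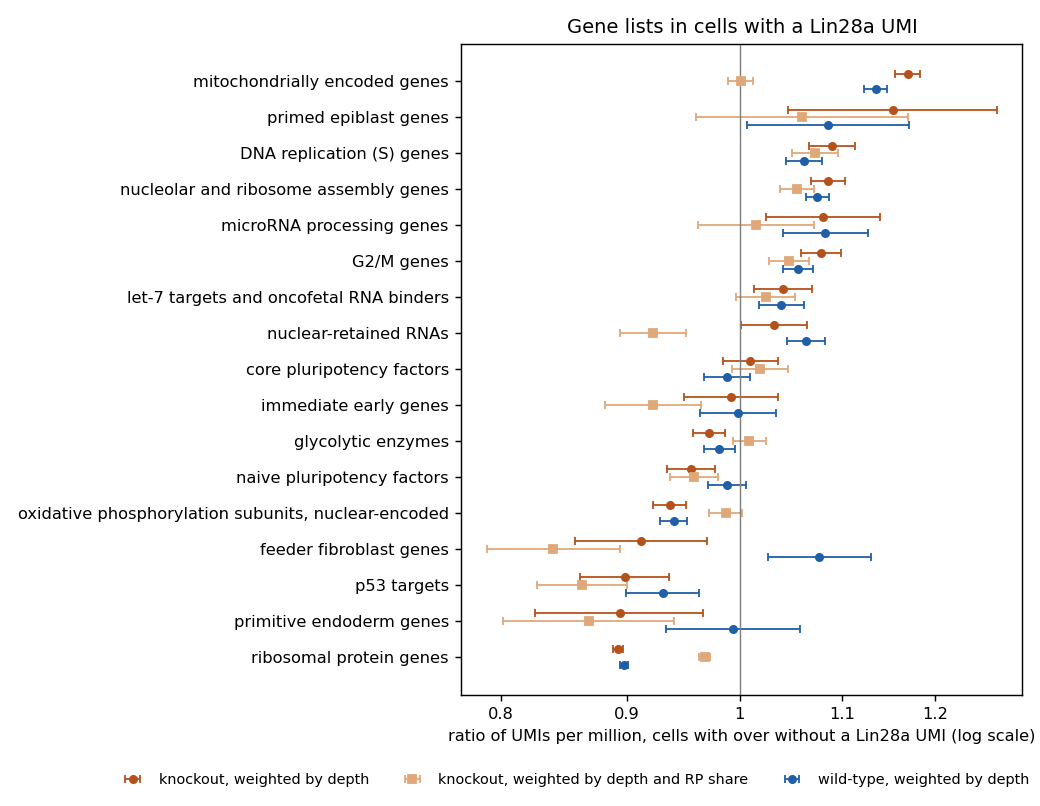
Ratio of summed CPM in cells with over cells without a *Lin28a* UMI (log scale, 95% counting intervals) for 17 gene lists (the 2C and Y-linked lists are not drawn): knockout library weighted by depth (orange circles), the same weighted also by RP share (light squares) and wild-type library weighted by depth (blue). Mitochondrially encoded genes stand highest at 1.17 and RP genes lowest at 0.892 in the knockout library, and feeder fibroblast genes lie on opposite sides of 1 in the 2 libraries.

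The members carried the markers of ES cells. Core pluripotency factors were at 3726 CPM in members and 3690 in reference cells, a ratio of 1.01 (0.984 to 1.04), with 10 of 14 genes above 1, a median of 1.09 and none past the fold. *Pou5f1*, which encodes OCT4, stood at 1034 and 1074 CPM, a ratio of 0.962 (0.917 to 1.01), *Tdgf1*, the co-receptor Cripto, had 1.07 (0.981 to 1.16), and *Trim28*, a silencer of retroviruses, 0.893 (0.840 to 0.949). With RP share weighted *Trim28* stood at 0.982 (0.922 to 1.04), and by depth in wild-type cells at 0.888 (0.840 to 0.939). The naive factors stood at 0.955 (0.934 to 0.977), with 8 of 15 above 1 and a median of 1.003. *Dppa5a*, an RNA-binding pluripotency marker, was at 1332 and 1835 CPM in the shallowest bin, 1344 and 1663 in the middle and 1103 and 1403 in the deepest, lower in the members each time, with a ratio of 0.789 (0.756 to 0.825). Without it the list stood at 1.03 (0.999 to 1.05). Its ratio was 0.889 (0.850 to 0.929) with RP share weighted and 0.839 in wild-type. Its unprocessed pseudogenes *Dppa5b* and *Dppa5c*, which may share its reads, passed the fold at 0.628 and 0.633. *Klf5* stood at 1.05 (0.987 to 1.11) and *Zfp42*, the naive marker REX1, at 1.07 (1.001 to 1.14).

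Other cell states left few counts. Of 15 primed epiblast genes 3 had enough UMIs to compare, all above 1: *Zic5* at 1.35 (1.05 to 1.74), *Dnmt3b*, a DNA methyltransferase, at 1.25 (1.01 to 1.55) and *Tead2* at 1.12 (0.898 to 1.38). The list's sum stood at 1.15 (1.05 to 1.27) and at 1.06 (0.959 to 1.17) with RP share weighted. Genes of the 2-cell-like (2C) state were nearly at 0: 16 of 18 had no UMI in the members and 14 none in the reference, and the list held 12 UMIs in the members, 5.12 CPM against 2.99 in reference cells, with a ratio of 1.72 and an interval of 0.710 to 4.12. *Zscan4d* had 0 UMIs in members and reference, and *Zfp352* 3 and 2. The other 9 of the 12 UMIs in the members came from 1 gene, so the sum rests mostly on it. Primitive endoderm genes stood at 0.894 (0.826 to 0.966), 389 against 436 CPM, with 1 of 2 genes compared above 1 and a median of 0.929. Without *Sparc*, the best counted gene, this list stood at 0.952 (0.839 to 1.08). *Sparc* stood at 0.858 (0.775 to 0.948), *Lamc1* at 1.0002 (0.864 to 1.16) and *Lama1*, with fewer UMIs than the minimum, at 0.882 (0.604 to 1.26). The immediate early genes stood at 0.992 (0.949 to 1.04) and had 6 of 13 above 1, with *Myc* past the fold upward and *Nr4a1* downward. With RP share weighted this list stood below 1, at 0.922 (0.882 to 0.964), and at 0.953 (0.918 to 0.989) in wild-type cells. The nuclear-retained RNAs stood at 1.03 (1.001 to 1.06), with *Malat1* at 0.9998 (0.961 to 1.04), and at 0.922 (0.894 to 0.951) with RP share weighted. *Malat1*, the best counted gene, stood at 0.873 (0.838 to 0.908) with RP share weighted. Without it the list was at 1.08 (1.03 to 1.14) by depth and at 1.003 (0.955 to 1.05) with RP share weighted.

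The feeder fibroblast genes, 15 markers of which 2 were counted deeply enough to compare, were at 638 CPM in members and 700 in reference cells, a ratio of 0.912 (0.858 to 0.969). *Fn1* and *Vim*, which ES cells also express, stood at 0.958 (0.881 to 1.04) and 1.02 (0.920 to 1.13). They made up most of the sum, at 361 and 243 CPM in members. Of the 15 markers 3 were at 0 UMIs in the 230 members, *Ccl2*, *Cxcl5* and *Postn*, and 2 in the 822 reference cells. *S100a6* was at 4.27 CPM in members and 17.7 in reference cells. The rule capped the collagen share of members and reference cells alike, so cells rich in fibroblast collagens were left out beforehand. Within these limits the summed feeder markers were not more abundant in the members than in the reference cells.

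To see where the members stand between the libraries, the 50 genes highest in wild-type and the 50 highest in knockout cells were chosen on the wild-type cells and one set of 411 reference cells, and read in the members and the other 411. The genes highest in wild-type, among them *Eif2s3y* and *Ddx3y*, summed to 2288 CPM in the members and 2013 in the other reference cells, against 5985 in wild-type cells. The ratio was 1.14 (1.09 to 1.18), with 26 of the 50 genes above 1 and a median of 1.07. Of all genes compared with the whole reference, 54.7% were above 1. The genes highest in the knockout summed to 3663 in the members and 3867 in the other reference cells, against 1660 in wild-type cells, a ratio of 0.947 (0.920 to 0.975) with 19 of 50 above 1. On both sets the members thus lay near the reference cells. The wild-type cells were also used to choose the sets, so the distance to their values was partly fixed by that choice. With RP share weighted the ratios were 1.01 (0.969 to 1.05) and 0.976 (0.947 to 1.01).

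Across the 710 genes with at least 2000 UMIs, the log2 ratios of cells with over without a *Lin28a* UMI correlated between the knockout and the wild-type library with a Pearson r of 0.883 and a Spearman rho of 0.886. Without the RP and mitochondrial genes, over 618 genes, they were 0.872 and 0.878, and over all 6190 genes compared in both libraries 0.508 and 0.540. These are correlations across genes, which are not independent replicates and share the depth weighting, and each comparison used the cells of its own library. The ratios were not weighted by RP share.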

How the data were processed

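Single-cell RNA-seq was analysed from 2 inDrop libraries of mouse ES cells, wild-type and *Lin28a* knockout. The authors turned the reads into matrices with a pipeline published for inDrop, and the deposited values are raw counts of UMIs for each gene in each barcode. The submitters' processing notes name mm10 and Seurat 2.3.4, and an aligner for these libraries is not given in the sources used here. Of 54146 gene identifiers, 54079 were named through GENCODE M21 (GRCm38) without their version. Members, gene lists and rules were chosen with earlier results of these data known. RP genes were 86 symbols fixed by a name pattern.

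For each gene, UMIs in members were divided by those expected from reference cells weighted to the members' UMIs in 3 depth bins (2000 to 5000, 5000 to 10000, 10000 or more), with 0.5 added to both numbers, in the bins as over all. Sums over lists had nothing added. A gene was called past the fold at a ratio of at least 1.5 or at most its inverse, on the same side of 1 in every bin, with at least 200 UMIs, and *Lin28a* was left out. With 1 library per genotype no test was run. Intervals are exact Poisson, exact binomial or conditional intervals of a ratio of 2 counts, at 95%, and cover counting error only. Named genes were *Lin28a*, *Lin28b*, 10 genes the study discusses, the 10 highest and 10 lowest ratios among genes past the fold, and the 3 best counted genes of each list. One gene that this rule names is not reported here. Genes named beyond these (*Cebpg*, *Med6*, *Plk2*, *Sdhb*, *Trim71*, *Dppa5c*, *Ddx3y*, *Ccl2*, *Cxcl5*, *Postn*) were chosen after their values were seen, as was *Dppa5b*. Doublets were called with Scrublet in scanpy 1.11.5 and were kept in the main values. The code was tested on simulated data. Alternatives were other limits on cells and genes, other depth bins, equal weight per cell, scaling by the median ratio, a minimum of 2 *Lin28a* UMIs, and leaving out doublets or a depth bin. Analyses used Python 3.11.15, numpy 2.4.6 and scipy 1.17.1.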

Additional observations from a re-analysis of the deposited data

Results flagged for a closer look

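The feeder fibroblast genes differed in side between the libraries: in cells with over cells without a *Lin28a* UMI their summed ratio was 0.912 (0.858 to 0.969) in the knockout and 1.08 (1.03 to 1.13) in the wild-type library, with both counting intervals clear of 1. With RP share weighted the ratios were 0.840 (0.790 to 0.894) and 1.02 (0.969 to 1.07). The difference itself was not tested, since each library is 1 sample. Most of the sum was *Fn1* and *Vim*, which ES cells also express. In members they stood at 361 and 243 of the list's 638 CPM. In wild-type cells with a *Lin28a* UMI they stood at 395 and 272 of 714. By depth, *Fn1* had ratios of 0.958 (0.881 to 1.04) in the knockout and 1.03 (0.962 to 1.09) in wild-type. *Vim* had 1.02 (0.920 to 1.13) and 1.15 (1.06 to 1.24). The groups hold too few samples to look for a sample far from the others.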

How the results depend on the processing

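No paired analysis was possible because each genotype had 1 library. The share of knockout-library cells with a *Lin28a* UMI, 21.9%, was 15.4% with an RP share of at least 10% and 17.8% with at least 500 UMIs per cell, and stayed within its interval under the other limits tried. The *Lin28a* ratio of the libraries stayed within its interval under all 6 alternatives. The 31 higher and 34 lower genes became 103 and 57 without depth bins, 129 and 135 with a minimum of 2 *Lin28a* UMIs, 103 and 114 with a gene minimum of 100 UMIs, 3 and 2 with a minimum of 500, and 3 and 20 with RP share weighted. Higher genes numbered 108 with an RP share of at least 10% (88 members), 47 without cells of 2000 to 5000 UMIs and 84 without cells of 10000 or more, and lower genes 15 without cells of 5000 to 10000. Of the 31 and 34, 13 and 9 were also called with 2 *Lin28a* UMIs, and 0 and 5 with the higher RP limit. Genes compared numbered 6308 in the main setting, without depth bins and with RP share weighted. They numbered 5557 with 2 *Lin28a* UMIs, 3305 with the higher RP limit, and 9027 and 3114 with minimums of 100 and 500 UMIs. Without the shallowest, middle or deepest bin they numbered 5949, 4338 and 3859. Genes under a setting's UMI minimum were not compared there, so the counts and overlaps do not cover the same genes. Every listed setting changes the number of cells or genes compared or the reference, and the cause was otherwise not tested.

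The ratio of the 50 genes highest in wild-type, 1.14, was 1.23 without depth bins, 1.27 with 2 *Lin28a* UMIs, 1.28 with the higher RP limit, 1.08 without the middle and 1.28 without the deepest bin, and 1.01 with RP share weighted. That of the 50 highest in the knockout, 0.947, was 0.907 with 2 *Lin28a* UMIs and 0.976 with RP share weighted. Of 19 gene lists 9 had intervals above and 7 below 1. With an RP share of at least 10%, 3 lay below 1, and with RP share weighted 3 lay above it (S phase, G2/M and nucleolar genes). The feeder list reversed to 1.05 and the let-7 target list to 0.992 with the higher RP limit, and the nuclear-retained RNAs to 0.922 and the glycolytic enzymes to 1.01 with RP share weighted. Without *Malat1* the nuclear-retained RNAs stood at 1.003 (0.955 to 1.05) with RP share weighted. Without the best counted gene of each list, a setting added after the data had been seen, the naive factors reversed to 1.03 and the glycolytic enzymes to 1.01, and the assembly list, 1.09, came to 1.03. In that setting the intervals of the primitive endoderm (0.839 to 1.08), microRNA processing (0.980 to 1.11) and Y-linked (0.828 to 2.66) lists also held 1. Members minus weighted reference was 27.2 genes at 2000 UMIs, 0.359 percentage points of mitochondrial share and -0.793 points of RP share, and without depth bins 45.9, 0.539 and -1.74. With 2 *Lin28a* UMIs the RP difference was -1.08. *Myc* stayed between 1.58 and 2.36 and *Rrp12* between 0.275 and 0.554 under every alternative that kept the gene minimum. These are ratios, given whether or not the gene was called there. *Myc*, with 234 UMIs over members and reference, and *Rrp12*, with 224, were not compared at a minimum of 500 UMIs. With the higher RP limit *Myc* was not called.

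Depth limits single genes: each gene past the fold rests on 33 to 223 UMIs in the members, and the whole 2C and Y-linked lists rest on 12 and 53.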
